A study of Mus musculus with 9 samples.

Results

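The Hox genes of the 4 mammalian clusters were described across 6 histone-mark libraries from mouse MLL-ENL leukemia cells, a leukemia driven by a fusion of the Mll (Kmt2a) and Enl (Mllt1) genes. Members were all rows whose symbol was Hoxa, Hoxb, Hoxc or Hoxd followed by a number, which gave 39 genes of 26611 named genes: 11 in HoxA, 10 in HoxB, 9 in HoxC and 9 in HoxD. Chromatin had been immunoprecipitated for trimethylated lysine 27 of histone H3 (H3K27me3) and for trimethylated lysine 4 (H3K4me3) and sequenced. Each mark was profiled in 3 genotypes: floxed cells (labelled fl), deleted cells (labelled ΔERT2) and deleted cells that also carry Flag-tagged Hhex (labelled ΔERT2 + Hhex-F, called rescue here). Which gene is floxed is not in the labels, and the series title is the ground for reading it as Hhex, a homeodomain transcription factor. All 3 groups carry the MLL-ENL fusion, and whether a line is 1 clone is not said. Every group was 1 library, so no difference between genotypes has a replicate check, and the intervals given are 95% exact intervals that cover counting error only.

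Hox genes encode homeodomain transcription factors that set position along the body axis, and each cluster lists them in order from position 1, used in the head and hindbrain, to position 13, used in the tail, limb tips and genital tract. Polycomb repressive complex 2 places H3K27me3 over the silent stretches of a cluster, while MLL-type enzymes place H3K4me3 at active starts. Leukemias with an MLL fusion are known for keeping the middle of HoxA active, Hoxa9 above all, together with the cofactor Meis1. A cell can thus hold a cluster in an open and a closed part with an edge between them, and that edge was looked for here.

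Promoter sequences are shown for the genes beside the largest H3K27me3 step of HoxA and of HoxB in floxed cells and for the HoxA and HoxB genes with the largest H3K27me3 ratios between genotypes. They are RefSeq sequences of build GRCm38.p6, read in the direction of the gene from 250 bases before the annotated start to 50 after it, with each CpG (the letters CG, which read the same on both strands) in capitals. Hoxa9 (chr6:52227321-52227620, minus strand) and Hoxa10 (chr6:52240805-52241104, minus strand) face each other across the HoxA edge, Hoxa11 (chr6:52245761-52246060, minus strand) had the largest HoxA ratios and Hoxb4 (chr11:96318017-96318316, plus strand) the largest HoxB ratio. Hoxb2, Hoxb3 and Hoxb13 met the same choice and are named only.
Hoxa9: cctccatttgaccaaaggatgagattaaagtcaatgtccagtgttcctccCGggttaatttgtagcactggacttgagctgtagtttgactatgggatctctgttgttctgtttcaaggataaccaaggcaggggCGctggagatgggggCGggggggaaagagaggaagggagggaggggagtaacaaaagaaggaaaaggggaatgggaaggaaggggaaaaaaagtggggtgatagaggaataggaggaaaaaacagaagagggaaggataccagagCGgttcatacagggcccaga
Hoxa10: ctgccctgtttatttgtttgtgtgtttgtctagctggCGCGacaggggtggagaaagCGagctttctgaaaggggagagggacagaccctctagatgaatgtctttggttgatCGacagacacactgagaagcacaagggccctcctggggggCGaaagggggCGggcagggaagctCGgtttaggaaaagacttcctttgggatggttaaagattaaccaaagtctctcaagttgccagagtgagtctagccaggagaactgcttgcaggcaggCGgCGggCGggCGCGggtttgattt
Hoxa11: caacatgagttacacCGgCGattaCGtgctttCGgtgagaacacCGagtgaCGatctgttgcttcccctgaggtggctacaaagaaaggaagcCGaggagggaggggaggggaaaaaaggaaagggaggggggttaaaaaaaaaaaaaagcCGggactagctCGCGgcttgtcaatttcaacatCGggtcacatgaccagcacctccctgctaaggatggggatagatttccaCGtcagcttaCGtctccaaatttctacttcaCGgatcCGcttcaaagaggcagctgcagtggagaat
Hoxb4: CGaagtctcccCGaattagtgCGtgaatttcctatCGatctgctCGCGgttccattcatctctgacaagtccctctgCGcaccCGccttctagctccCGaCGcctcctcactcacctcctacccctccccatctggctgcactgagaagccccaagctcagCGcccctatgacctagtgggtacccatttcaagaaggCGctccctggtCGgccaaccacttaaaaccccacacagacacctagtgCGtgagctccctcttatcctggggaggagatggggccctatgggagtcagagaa
The Hoxa9 promoter held 4 CpG, the Hoxa10 promoter 12, the Hoxa11 promoter 15 and the Hoxb4 promoter 14, and 68.1%, 40.1%, 35.2% and 36.9% of 27025 promoters of the same length held at least as many. Over the 22 Hox promoters in the RefSeq set the median was 13.5 CpG, with a range of 4 to 45, against a median of 7 over all promoters. Hoxa13 had the 45. These counts describe the sequence and were tied to no level of either mark.

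Of the miRNA genes inside the clusters, those of the miR-196 and miR-10 families are shown by their 5p mature strand, with the seed, bases 2 to 8, in capitals. Mir196b lies between Hoxa9 and Hoxa10 on the minus strand (mature strand at chr6:52230129-52230150), Mir196a-1 in HoxB and Mir196a-2 in HoxC.
mmu-miR-196b-5p: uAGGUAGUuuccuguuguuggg
mmu-miR-196a-5p: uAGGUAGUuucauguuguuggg
mmu-miR-10a-5p: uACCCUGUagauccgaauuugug
mmu-miR-10b-5p: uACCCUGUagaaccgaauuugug
The 3 miR-196 genes share the seed AGGUAGU, and Mir10a in HoxB and Mir10b in HoxD share ACCCUGU. The miR-196 family is known to target Hox messenger RNAs, and Mir196b is used below as a further measuring point of H3K4me3 within HoxA. Mir196a-1 and Mir196a-2 had 4, 4 and 17 and 14, 14 and 25 H3K27me3 counts in floxed, deleted and rescue, and at most 4 H3K4me3 counts.

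Summed over named genes, H3K27me3 reached 2444487 (floxed), 2535576 (deleted) and 4203349 (rescue) counts. For H3K4me3 the totals were 645240, 420701 and 395133. Counts were scaled to CPM, the usual counts-per-million unit of a library's own total, and H3K27me3, counted over whole genes, was also given per kb of the gene (density). A gene was taken as measured for a mark from a mean of 20 counts per library upwards. By H3K4me3, 8 of 8 myeloid and progenitor markers on the plus strand (of 16 listed), among them Mpo, Elane, Kit and Cd34, were at or above the 75th percentile of genes in every library, with a summed level of 1160, 1090 and 1130 CPM. That percentile, taken over all named genes of either strand, was 27, 18 and 15 counts. Plus-strand genes of at least 10 kb had medians of 52, 32 and 29 counts, so most of them reached it too. None of the 1 B cell, 2 T cell, 2 erythroid and 1 stromal markers on that strand reached it, and the epithelial marker Epcam did so in the deleted library alone, with 19 counts against 15 and 6. Over the whole lists, on either strand, 11 of 16 myeloid and progenitor markers reached it in each library, with Ptprc at 0 in all 3, and 0 of 5 B cell, 0 of 6 T cell and 0 of 5 erythroid markers. Windows of minus-strand genes are read below as lying at the far end, so a low count there does not describe the start. The stromal marker Pdgfrb and the epithelial marker Cdh1 reached it in all 3 libraries and the endothelial marker Kdr in the deleted library. The summed level of the 6 stromal and endothelial markers was 108, 140 and 104 CPM and that of the 6 epithelial and neuronal markers 338, 345 and 324 CPM, and their part in the results was not tested.

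Overlapping genes limit what the zeros mean. Of 118 genes of 1 to 10 kb that lie wholly inside another gene by RefSeq coordinates, 118 had 0 H3K27me3 counts in all 3 libraries, against 378 of 4044 (9.35%) that overlap no gene. Hoxa4, Hoxa5 and Hoxa6, which lie inside the spans of Hoxa3 or Hoxaas3, and Hoxd4, which lies inside Hoxd3, were at 0 in every library. Their H3K27me3 was therefore not measured, and their zeros are not read as a lack of the mark. The check used only genes whose file length lay within 5 bp of RefSeq. Hoxb4 lies inside the RefSeq span of Hoxb3 (40830 bp, 8.53% of it shared), but the file length of Hoxb3 is 24805 bp. Whether the counted spans of Hoxb3 and Hoxb4 overlap is therefore not known. Hoxb4 had 35, 24 and 1 counts and is kept below among the genes not inside another gene.

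Each gene had 1 window of 301 bp for H3K4me3, and its place was read from the data. Among genes of at least 10 kb, those on the plus strand had a median of 52, 32 and 29 counts in floxed, deleted and rescue (n = 5600), and those on the minus strand a median of 0 in each library (n = 5573). The windows thus held signal at the low-coordinate end of a gene, which is the start of a plus-strand gene and the far end of a minus-strand gene. Of the Hox genes with a strand in RefSeq's promoter set, 9 of 9 in HoxA were on the minus strand and 13 of 13 in HoxB, HoxC and HoxD (3, 1 and 9) on the plus strand. By this reading HoxA windows lie at the far ends of the genes and those of the other clusters at the starts.

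In the floxed cells, HoxA held an open stretch from Hoxa2 to Hoxa9 and a silent part from Hoxa10 to Hoxa13. H3K27me3 was near 0 at Hoxa2, Hoxa3, Hoxa7 and Hoxa9 and dense on the silent part. Hoxa4, Hoxa5 and Hoxa6, within the open stretch, were not measured for that mark. The H3K4me3 of the cluster was highest at the upper end of the open stretch. HoxB carried H3K27me3 from Hoxb1 to Hoxb13 except for a dip at Hoxb3 and Hoxb4. HoxC and HoxD were covered from end to end, without an edge between an open and a closed part.

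Hoxa2, which sets branchial arch identity, had 1, 3 and 9 H3K27me3 counts in floxed, deleted and rescue, and Hoxa3, needed for thymus and parathyroid, had 20, 15 and 20 counts over a span of 44006 bp, a density of at most 0.186 CPM per kb, with 31.7% of its RefSeq span shared with other genes. Hoxa7 had 0, 3 and 9 counts and Hoxa9, the main leukemia gene of the cluster, 1, 3 and 5. Summed over Hoxa2, Hoxa3, Hoxa7 and Hoxa9 the open stretch held 22, 24 and 43 counts in libraries that differ in depth, and the ratios were 1.05 (0.565 to 1.97) in deleted against floxed, 1.08 (0.641 to 1.86) in rescue against deleted and 1.14 (0.665 to 2.00) in rescue against floxed. Hoxa3, with its long span, gave most of that sum. In rescue against floxed Hoxa2 had a ratio of 5.23 (0.725 to 229) and Hoxa9 of 2.91 (0.325 to 138). Hoxa7 had 9 counts against 0 in floxed, and with 3 counts put in place of that 0 its ratio was 1.74, which is no lower limit. All 3 genes had their highest density in rescue, of at most 0.923 CPM per kb, on 9 counts or fewer.

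Beyond Hoxa9 the density rose in a single step. Hoxa10, which acts in blood progenitors and the uterus, had 239, 148 and 560 counts, a density of 10.1, 6.04 and 13.8 CPM per kb. Hoxa11, a gene of forelimb and kidney patterning, had 166, 47 and 380 counts (18.5, 5.06 and 24.7 CPM per kb). Hoxa13, which patterns digits and hindgut, had 163, 96 and 275 counts (32.9, 18.7 and 32.3 CPM per kb). All 3 genes were lowest in the deleted library, and their density rose from Hoxa10 to Hoxa13 in floxed and rescue; in the deleted library Hoxa11 lay below Hoxa10.

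**Figure D1:**
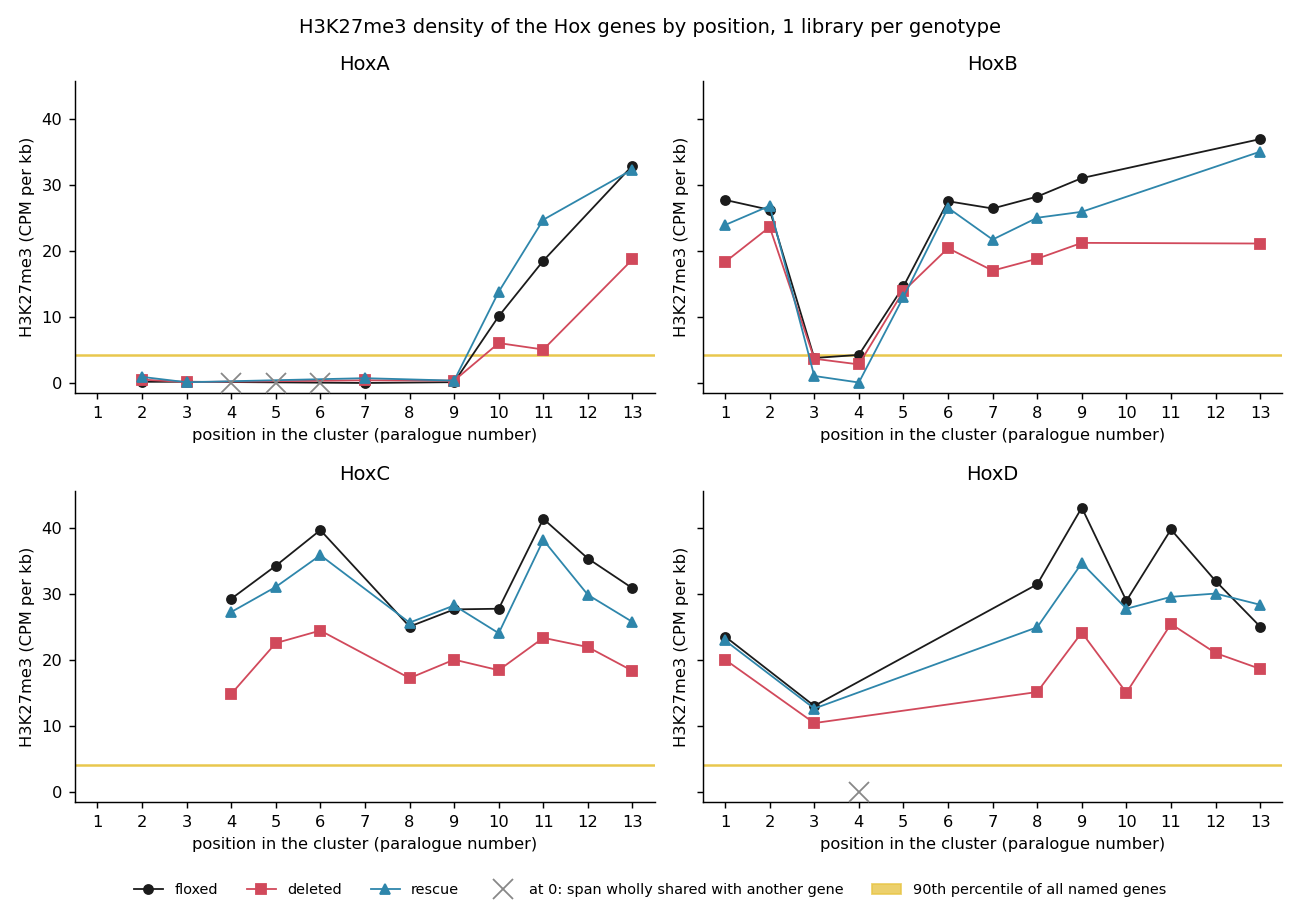
H3K27me3 density in CPM per kb (vertical axis) by position 1 to 13 in each cluster (horizontal axis), 1 point per gene and library, with the 90th percentile of all named genes as a band and crosses for the 4 genes at 0 whose span is wholly shared with another gene. HoxA is near 0 at Hoxa2, Hoxa3, Hoxa7 and Hoxa9. HoxB dips at Hoxb3 and Hoxb4, and HoxC and HoxD stay above the band in all 3 libraries apart from Hoxd4.

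Edges were measured as the fold step in counts per kb between neighbours, with 0.5 counts added to each. From Hoxa9 to Hoxa10 density stepped up 54.8-fold in floxed (14.6 to 3260), 14.6-fold in deleted (5.69 to 83.1) and 35.0-fold in rescue (16.4 to 119). The Hoxa9 side holds 1, 3 and 5 counts, so these intervals are wide. This edge thus lay between the same pair of genes in all 3 libraries, with overlapping intervals.

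HoxB was silent at its first genes. Hoxb1, a hindbrain gene, had 169, 116 and 251 H3K27me3 counts (27.7, 18.3 and 23.9 CPM per kb), and Hoxb2, its neighbour in hindbrain patterning, 153, 143 and 269 counts (26.2, 23.6 and 26.8 CPM per kb). The dip followed. Hoxb3 had 229, 231 and 110 counts over 24805 bp, a density of 3.78, 3.67 and 1.06 CPM per kb, and Hoxb4, a gene known for expanding blood stem cells, had 35, 24 and 1 counts, a density of 4.25, 2.81 and 0.0706 CPM per kb. In the rescue library both genes were at their lowest although that library is the deepest.

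From Hoxb5 on, HoxB was covered again. Hoxb5 had 93, 92 and 143 counts and Hoxb6 161, 124 and 267 counts, at densities of 14.6, 13.9 and 13 for the first and 27.5, 20.4 and 26.5 CPM per kb for the other. Hoxb7 had 227, 152 and 321 counts, and Hoxb8, which can immortalise myeloid progenitors, 236, 163 and 359. Hoxb9 had 399, 283 and 573 counts, and Hoxb13, a gene of the tail and prostate that lies apart from the rest of the cluster, 202, 120 and 329, with densities of 36.9, 21.1 and 35.0 CPM per kb. The deleted library was lowest in density at each of the genes from Hoxb6 to Hoxb13.

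Down from Hoxb2 to Hoxb3 the step was 6.96-fold in floxed (5.63 to 8.56), 6.45-fold in deleted (5.19 to 7.97) and 25.4-fold in rescue (20.3 to 32.0). Up from Hoxb4 to Hoxb5 it was 3.40-fold in floxed (2.30 to 5.22), 4.88-fold in deleted (3.13 to 8.12) and 124-fold in rescue (32.6 to 7350), the last against a single count. Floxed and deleted had overlapping intervals at both edges, and the rescue library had the steepest edge on either side.

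In HoxC the largest step between neighbours was 1.58-fold in floxed (Hoxc6 to Hoxc8), 1.51-fold in deleted (Hoxc4 to Hoxc5) and 1.58-fold in rescue (Hoxc10 to Hoxc11), and its densities ranged from 25.1 to 41.4, 14.9 to 24.5 and 24.1 to 38.2 CPM per kb. Hoxc9, a thoracic gene, had 502, 377 and 883 counts, and Hoxc13, a hair follicle gene, 581, 359 and 832. In HoxD the step from Hoxd4 to Hoxd8 would be the largest, but Hoxd4, whose span is wholly shared, is listed at 0, and with it left out the largest step was 2.41-fold in floxed, 1.91-fold in deleted and 1.97-fold in rescue. Hoxd3 had 1163, 969 and 1943 counts over 36279 bp and the lowest density of HoxD (13.1, 10.5 and 12.7 CPM per kb), but 31.2% of its span is shared with other genes. Per kb of unshared span the largest HoxD step was 1.66-fold, 1.69-fold and 1.39-fold, close to those of HoxC.

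The genes beside the clusters placed the outer ends of the silent domains. Evx1, a homeobox gene beyond Hoxa13, had 336, 239 and 600 H3K27me3 counts, a density of 28.2, 19.3 and 29.2 CPM per kb, and Evx2 beyond Hoxd13 had 346, 220 and 536 counts (37.2, 22.8 and 33.5 CPM per kb). Next to them the mark ended: Hibadh had 27, 38 and 48 counts over 94071 bp, at most 0.159 CPM per kb, and Lnp, beyond Evx2, 27, 19 and 26 counts over 64112 bp, at most 0.172 CPM per kb. At the other end of HoxD, Mtx2 had 12, 9 and 29 counts. Skap2, beside HoxA at its other end, had 24, 28 and 51 counts over 153385 bp. HoxB differed in its surroundings, where Skap1 had 2811, 2986 and 4925 counts over 295032 bp (3.90, 3.99 and 3.97 CPM per kb) and Ttll6 5.49, 5.64 and 5.69 CPM per kb. In HoxC the non-coding gene Hotair, known for binding Polycomb proteins, had 212, 146 and 355 counts (22.3, 14.8 and 21.7 CPM per kb), while Smug1, a DNA repair gene beside the cluster, had 2, 5 and 6.

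Some of these neighbours were also called by the size rule defined with the comparisons below. Measured for H3K27me3 were 5, 3, 3 and 4 flanking and non-coding genes of HoxA, HoxB, HoxC and HoxD, and for H3K4me3 5, 1, 1 and 2. Over all measured genes, H3K27me3 was lower at 5.39% (deleted against floxed), 11.3% (rescue against deleted) and 8.05% (rescue against floxed). For H3K4me3 the first 2 of these shares were 4.39% and 5.97%. In deleted against floxed Evx2 was lower at 0.613 (0.515 to 0.728) and Hotair at 0.664 (0.534 to 0.824). Outside the silent domains, on 19 to 45 counts each, Snx10 was lower in rescue against deleted and against floxed, and Lnp, Calcoco1 and Atf7 against floxed. For H3K27me3 none of 3 measured HoxB neighbours was called in any comparison, too few genes to set against these shares. Skap1 had ratios of 1.02, 0.995 and 1.02. For H3K4me3, Evx2, a minus-strand gene, was lower in deleted against floxed at 0.595 (0.363 to 0.949). Hoxa11os was lower for that mark in rescue against deleted at 0.654 (0.452 to 0.938).

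The H3K4me3 of HoxA lay in the same window of the cluster as the missing H3K27me3. At the end of Hoxa9 it reached 220, 120 and 105 counts (341, 285 and 266 CPM), the highest of all 39 Hox genes in floxed and deleted. The window of Hoxa7 held 90, 53 and 51 counts and that of Hoxa10 87, 35 and 41. Mir196b, between Hoxa9 and Hoxa10, had 152, 94 and 87 counts, and Hotairm1, a non-coding gene of myeloid cells beside Hoxa2, had 156, 111 and 100. Signal was thus present near both ends of the open stretch. Between them Hoxa2, Hoxa3, Hoxa4, Hoxa5 and Hoxa6 had at most 12 counts in any library, in windows at the ends of the genes. Inside the silent part, the antisense gene Hoxa11os had 122, 83 and 51 H3K4me3 counts together with 258, 92 and 495 H3K27me3 counts. Its plus-strand start (chr6:52245243) lies inside Hoxa11, near the start of that minus-strand gene (chr6:52245810). Which gene this H3K4me3 belongs to was not tested. The windows of Hoxa11 and Hoxa13, at the far ends of the genes, held 10, 8 and 10 and 4, 1 and 6.

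**Figure D2:**
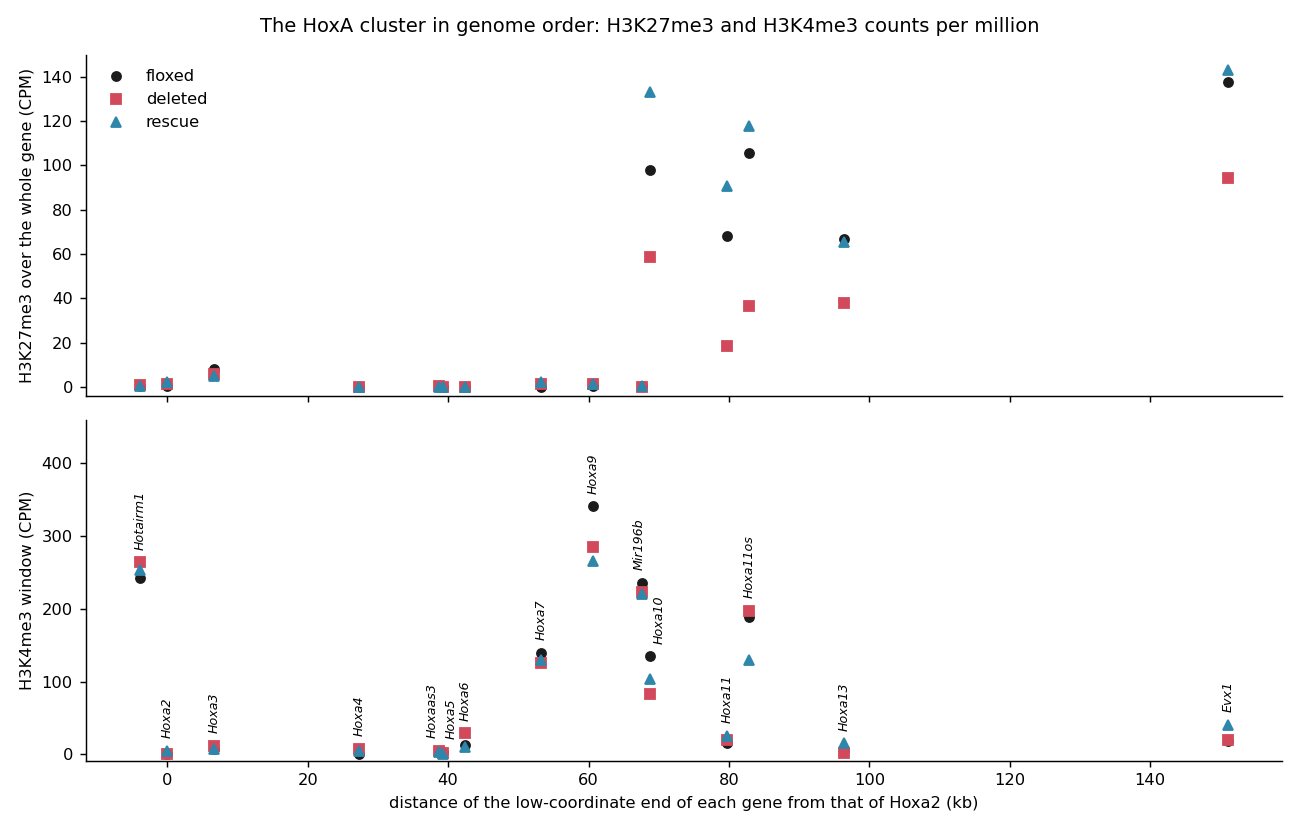
H3K27me3 over whole genes (upper panel, CPM) and H3K4me3 in the 301 bp window (lower panel, CPM) for the genes of HoxA and Evx1, placed by the distance of their low-coordinate end from that of Hoxa2 in kb, 1 point per library. H3K27me3 is near 0 from Hoxa2 to Hoxa9, where the zeros of Hoxa4, Hoxa5 and Hoxa6 are not read as a lack of the mark. Mir196b, 85 bp long, had 1, 0 and 1 H3K27me3 counts, too few to read its level, and CPM here is not divided by length. H3K4me3 peaks at Hoxa9, Mir196b and Hotairm1, with Hoxa11os the highest point inside the silent part.

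In HoxB the H3K4me3 maximum stood in the dip. Hoxb4 had 140, 80 and 111 H3K4me3 counts (217, 190 and 281 CPM), and no other HoxB gene passed 50. Hoxb7 had 50, 27 and 22, Hoxb13 45, 23 and 13, and Hoxb5 38, 31 and 19. Hoxb6 had 18, 12 and 5, and Hoxb9 10, 9 and 7. Hoxb1, Hoxb2 and Hoxb8 had 2 to 7, and Hoxb3 had 0, 0 and 2 counts in its window. Within the dip H3K4me3 thus stood at Hoxb4 and was nearly absent from the Hoxb3 window. Hoxb4 still carried H3K27me3 in floxed and deleted, with 35 and 24 counts, and had 1 count in rescue. In HoxC the window counts ranged from 3 to 46 in floxed, with Hoxc9 at 46, 35 and 23. In HoxD Hoxd13, a digit gene at the end of the cluster, had 85, 54 and 32 counts, and Hoxd8 81, 62 and 30, both on dense H3K27me3.

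**Figure D3:**
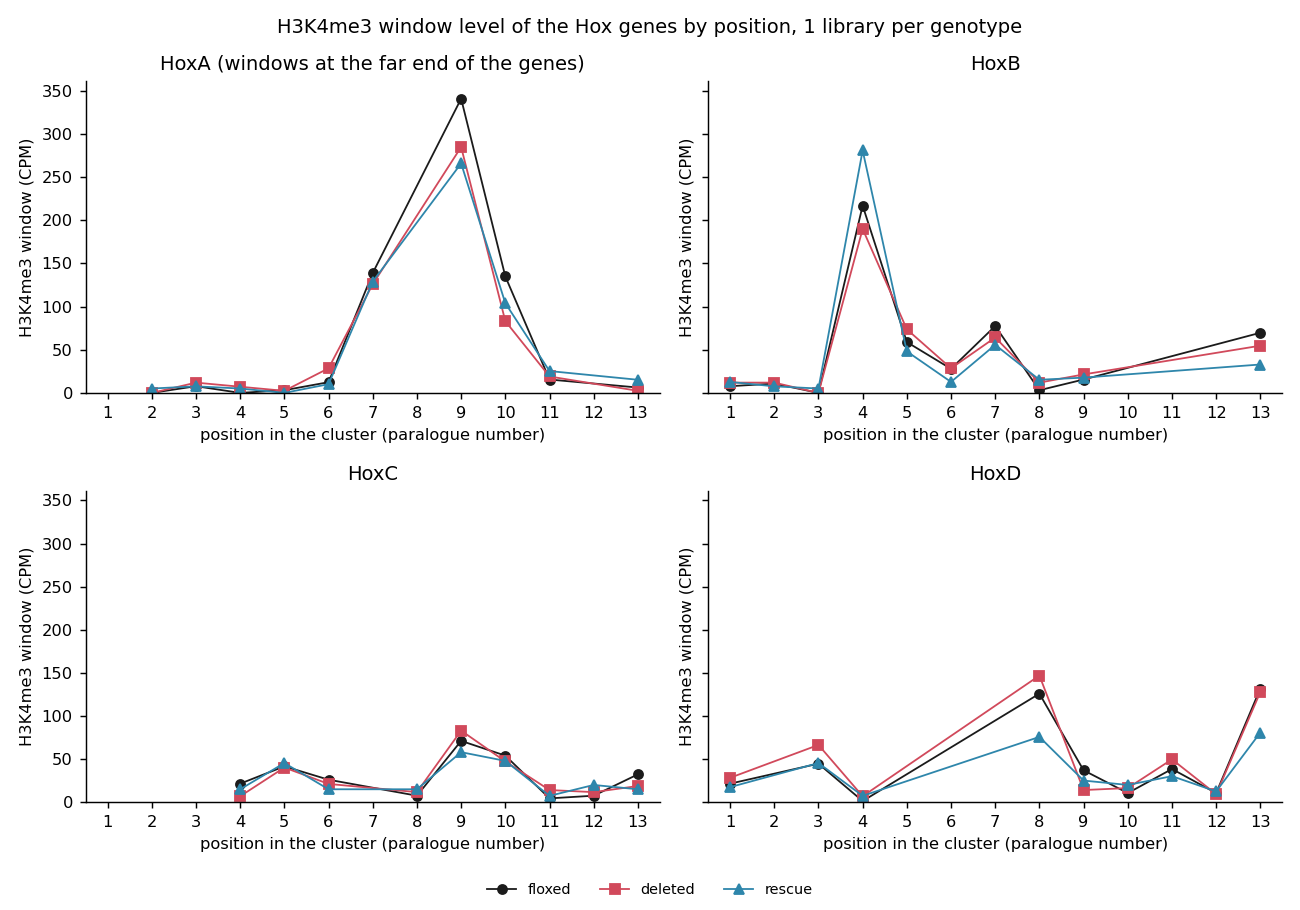
H3K4me3 window level in CPM (vertical axis) by position 1 to 13 in each cluster (horizontal axis), 1 point per gene and library. Hoxa9 with 341, 285 and 266 CPM and Hoxb4 with 217, 190 and 281 CPM stand above the other genes, and no HoxC gene reaches Hoxb4 in any library.

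To set both marks side by side, a gene was called H3K27me3-rich when its density was at or above the 90th percentile of all named genes of its library and H3K4me3-rich when its window count was at or above the 75th percentile. H3K27me3-rich genes made up 30, 29 and 28 of the 39 Hox genes in floxed, deleted and rescue (76.9%, 74.4% and 71.8%) against 10% of all genes, and H3K4me3-rich genes 13, 13 and 12 (33.3%, 33.3% and 30.8%) against 25.1%, 25.1% and 25.2%. Both marks were rich at 11, 10 and 9 Hox genes, 28.2%, 25.6% and 23.1% against 2.22%, 2.26% and 2.27% of all genes. Within single genes Hoxa7 and Hoxa9 were H3K4me3-rich alone in every library. Hoxb4 was rich in both in floxed, at the 90th percentile of density, the threshold itself, and in H3K4me3 alone in deleted and rescue. Hoxb3 was in neither class in any library (density percentiles 88.7, 88.3 and 71.0). The threshold for H3K4me3 mixes both window positions; taken over plus-strand genes alone, 5, 4 and 2 Hox genes reached it (12.8%, 10.3% and 5.13%), against 25.4%, 25.3% and 25% of plus-strand genes. Without HoxA these were 2, 3 and 1 of 28. At that threshold both marks were rich at 3, 2 and 0 Hox genes: Hoxa10, Hoxb4 and Hoxd13 in floxed, and Hoxd8 and Hoxd13 in deleted. Every HoxC gene stayed H3K27me3-rich in all 3 libraries, as did every HoxD gene except Hoxd4.

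**Figure D4:**
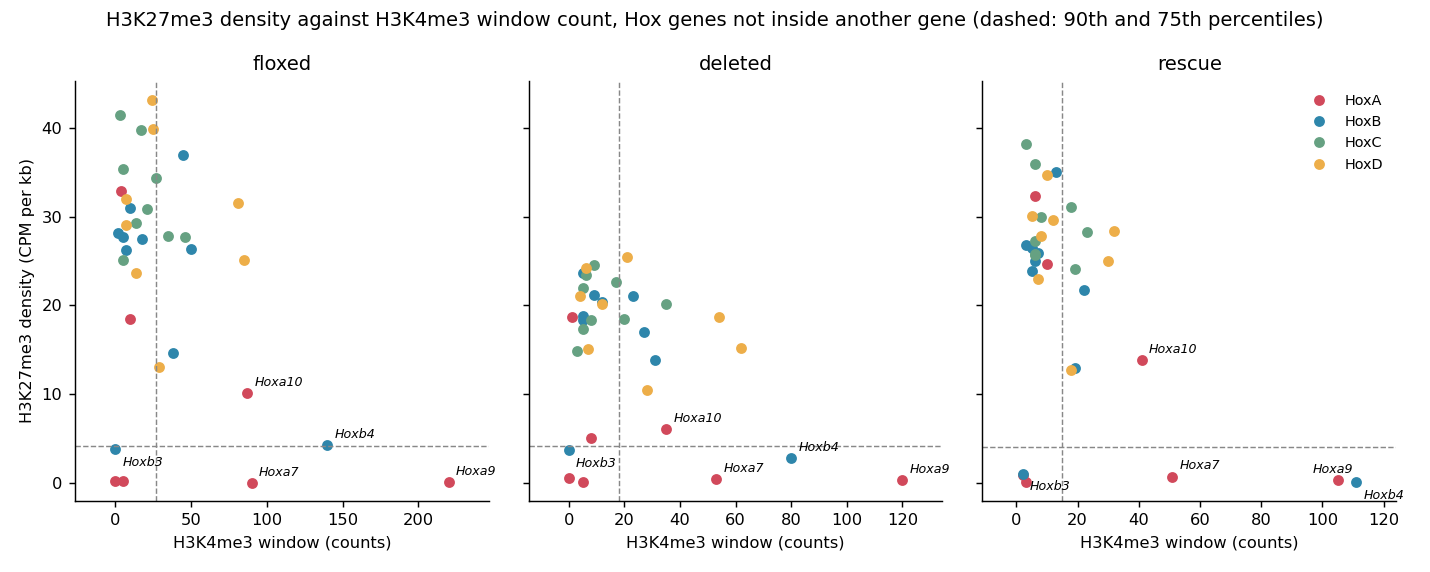
H3K27me3 density in CPM per kb (vertical axis) against the H3K4me3 window count (horizontal axis, its own range in each panel) for 34 Hox genes not inside another gene, 1 panel per library, coloured by cluster, with dashed lines at the 90th and 75th percentiles of all named genes. Hoxa7 and Hoxa9 lie at the lower right in each panel, and Hoxb4 crosses the density line between floxed and deleted.

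Across the 35 Hox genes the rank correlation of density and window count was -0.11, -0.08 and -0.13 in floxed, deleted and rescue. It describes genes of 1 library that share its depth, and 8 of the 35 windows are those of HoxA, at gene ends. Genes with high H3K4me3 were therefore found on both sides of the density threshold, Hoxa9 below it and Hoxd13 above it.

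In the deleted cells H3K27me3 was lower than in floxed cells over all 4 clusters. Each of the 31 measured Hox genes had a log2 ratio below 0, with a median of -0.60, and the median was lowest at positions 9 to 13. The size rule called a gene from a 1.5-fold difference in CPM upwards, provided that the interval excluded 1, and 18 Hox genes were called lower and 0 higher, where 5.39% of 10604 measured genes were lower and 4.72% higher. Among H3K27me3-rich genes other than Hox, 13.3% of 2354 were lower and 0.807% higher. Their median was -0.25 on the log2 scale, and that of all measured genes 0.02. The 8 Hox genes that were not measured were Hoxa2, Hoxa3, Hoxa7, Hoxa9 and the 4 inside other genes. All 3 comparisons share libraries, so their calls are not independent of each other.

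Hoxa11 had the largest ratio, 0.273 (0.193 to 0.379), from 166 to 47 counts. Hoxa10 stood at 0.597 (0.483 to 0.736) and Hoxa13 at 0.568 (0.437 to 0.735), so the whole silent part of HoxA was called. Hoxa11os, which shares 15.3% of the Hoxa11 span, was also lower, at 0.344 (0.268 to 0.438).

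In HoxB 4 of 10 genes were lower, Hoxb1, Hoxb7, Hoxb8 and Hoxb13, with Hoxb13 at 0.573 (0.453 to 0.721). Hoxb3 on the edge of the dip had a ratio of 0.972 (0.807 to 1.17), Hoxb2 0.901 (0.712 to 1.14) and Hoxb5 0.954 (0.707 to 1.29). Hoxb4, with 35 and 24 counts, had 0.661 (0.376 to 1.14). Hoxb6 at 0.743 (0.583 to 0.944) and Hoxb9 at 0.684 (0.585 to 0.798) had intervals wholly below 1 but fell short of the 1.5-fold limit.

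In HoxC 6 of 9 genes were lower, from Hoxc4 at 0.509 (0.392 to 0.659) and Hoxc11 at 0.565 (0.451 to 0.706) to Hoxc12 at 0.623 and Hoxc5 at 0.658. In HoxD 5 of 8 measured genes were lower, with Hoxd8 at 0.482 (0.357 to 0.647), from 140 to 70 counts, and Hoxd10, a gene of the lumbar spinal cord, at 0.521 (0.414 to 0.653), from 224 to 121; Hoxd11 had 0.641 and Hoxd12 0.660. Hoxd1 and Hoxd3 at the other end had 0.848 (0.651 to 1.11) and 0.803 (0.737 to 0.875) and were not called. By position, 2 of 8 measured genes of positions 1 to 4, 5 of 8 of positions 5 to 8 and 11 of 15 of positions 9 to 13 were lower, with median log2 ratios of -0.33, -0.59 and -0.74. The medians by cluster were -0.78 in HoxA, -0.56 in HoxB, -0.68 in HoxC and -0.62 in HoxD. When counts were scaled to the 2662 genes with the most H3K4me3 in place of library totals, 13 genes stayed past the rule and Hoxb1, Hoxb7, Hoxb8, Hoxc5 and Hoxd12 did not.

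**Figure D5:**
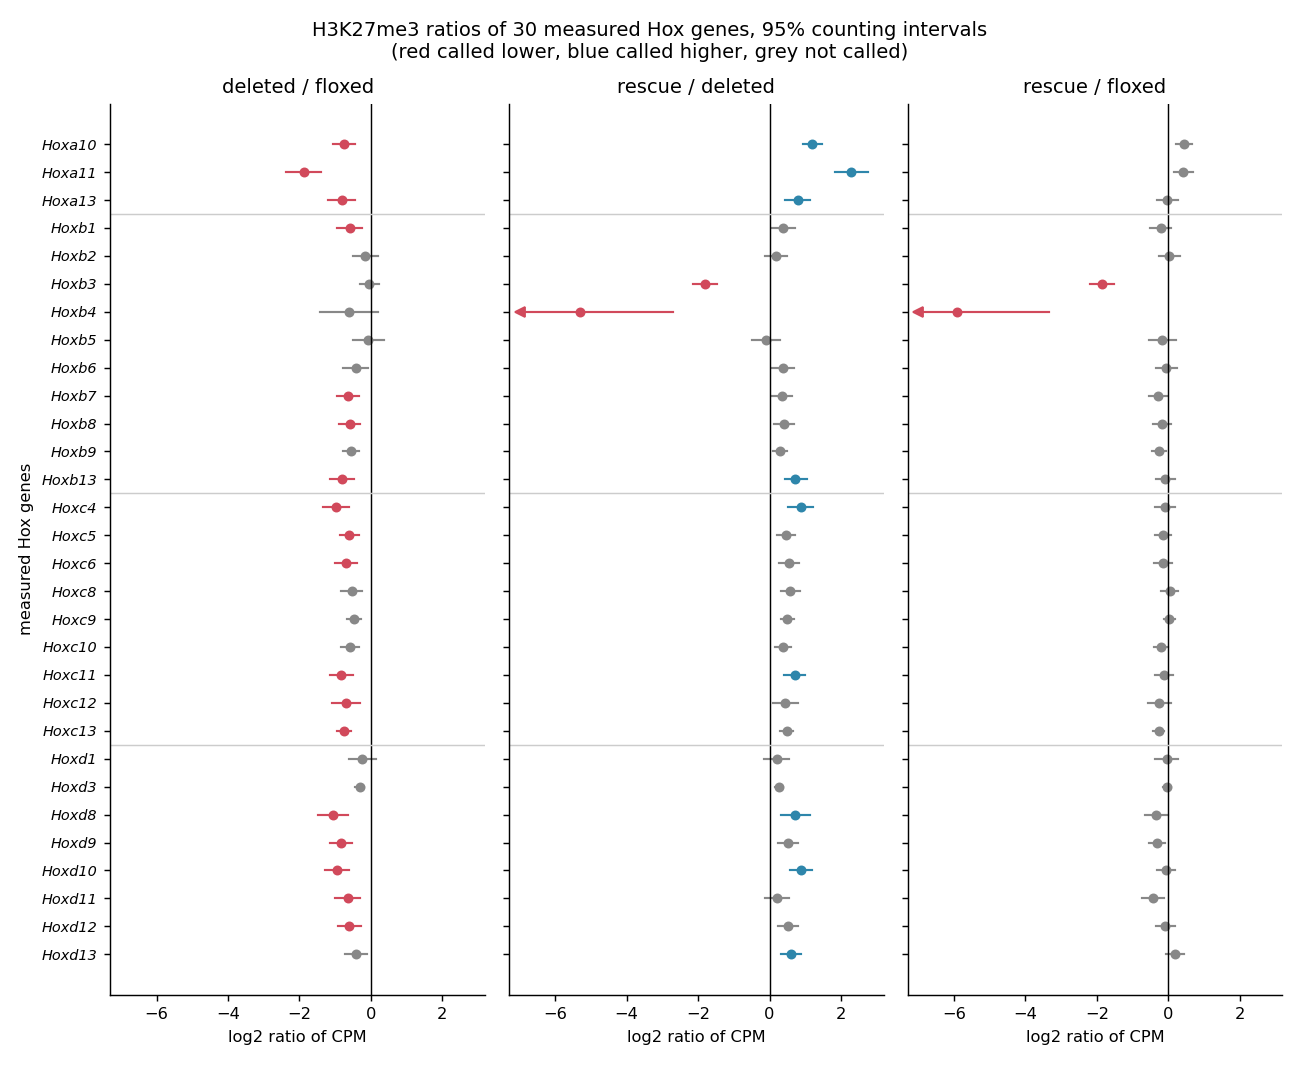
Log2 ratio of H3K27me3 CPM (horizontal axis) with its 95% counting interval for 30 of the 31 measured Hox genes (vertical axis), 1 panel per comparison; red was called lower, blue called higher and grey not called, and arrows mark intervals of Hoxb4 that run past the axis. All genes plotted lie left of 0 in deleted against floxed, and Hoxb3 and Hoxb4 lie far left in both panels with rescue.

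In the rescue cells the Hox genes moved in both directions. Most Hox genes had more H3K27me3 than in deleted cells, with the largest ratios at Hoxa11 and Hoxa10, while Hoxb3 and Hoxb4 in the dip of HoxB had much less. By the rule 9 of the 31 measured Hox genes were higher and 3 lower than in deleted. Of all measured genes 7.07% were higher and 11.3% lower and, of the H3K27me3-rich genes other than Hox, 10.3% higher and 3.82% lower. The count of lower Hox genes is close to the share over all genes. The median log2 ratio was 0.46 over the Hox genes, 0.17 over those other H3K27me3-rich genes and -0.06 over all measured genes.

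Hoxa11 went from 47 to 380 counts, a ratio of 4.88 (3.60 to 6.75). Hoxa10 followed at 2.28 (1.90 to 2.75) and Hoxa13 at 1.73 (1.36 to 2.20), and Hoxa11os at 3.25 (2.59 to 4.10). Evx1, farther out, was also called higher, at 1.51 (1.30 to 1.77). The higher genes of the other clusters were Hoxb13 at 1.65 (1.34 to 2.06), Hoxc4 at 1.83 (1.44 to 2.34), Hoxc11 at 1.63 (1.33 to 2.01), Hoxd8 at 1.65 (1.25 to 2.20), Hoxd10 at 1.84 (1.49 to 2.28) and Hoxd13 at 1.52 (1.26 to 1.84). Of the 9, 7 were genes of positions 9 to 13. Hoxd13 was no longer called when counts were scaled to the genes with the most H3K4me3, which left 8 genes higher, against 13 with edgeR's TMM factors and 11 with DESeq2's size factors.

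Among the lower genes were both genes in the dip of HoxB. Hoxb3 went from 231 to 110 counts, a ratio of 0.287 (0.227 to 0.362), and Hoxb4 from 24 counts to 1, a ratio of 0.0251 (0.000611 to 0.154). Their neighbours in HoxB were not called. Hoxb2 had a ratio of 1.13 (0.923 to 1.40) and Hoxb5 of 0.938 (0.717 to 1.23). Hoxb4 was also the HoxB gene with the most H3K4me3, whose window had a rescue against deleted ratio of 1.48 (1.10 to 1.99), just under the fold of the rule.

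Against floxed cells, 3 of the 31 measured Hox genes were lower in rescue and 0 higher, Hoxb3 and Hoxb4 among the lower. Of all measured genes 8.05% were lower and 5.72% higher, and of the H3K27me3-rich genes other than Hox 5.06% and 2%. The count of lower Hox genes is close to the share over all genes. Hoxb3 had a ratio of 0.279 (0.220 to 0.352) and Hoxb4 of 0.0166 (0.000409 to 0.0989). For the remaining 28 measured genes the ratio to floxed lay inside the 1.5-fold limits; Hoxa10, at 1.36 (1.17 to 1.59), and Hoxa11, at 1.33 (1.11 to 1.61), were the highest. The cluster medians were 0.19 in HoxA, -0.19 in HoxB, -0.14 in HoxC and -0.07 in HoxD on the log2 scale. Rescue cells thus had Hox H3K27me3 near the floxed level at most genes, and below it in the dip of HoxB.

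H3K4me3 in the windows changed at few Hox genes, and 13 of 39 were measured. In deleted against floxed 1 was lower, Hoxa10, from 87 to 35 counts, at 0.617 (0.404 to 0.923), and 0 were higher, where 4.39% of 6681 measured genes were lower and 3.02% higher. Hoxa9 had 0.837 (0.664 to 1.05), Hoxa7 0.903 (0.631 to 1.28) and Hoxb4 0.876 (0.657 to 1.16). That is a single gene of 13, read against this background.

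For rescue against deleted, 2 Hox genes passed as lower and 0 as higher, where 5.97% of measured genes were lower and 4.49% higher. Hoxd8 went from 62 to 30 counts, a ratio of 0.515 (0.322 to 0.809), and Hoxd13 from 54 to 32, a ratio of 0.631 (0.394 to 0.995). Against floxed, rescue had 3 lower and 0 higher Hox genes, where 3.92% were lower and 1.92% higher: Hoxd8 at 0.605 (0.384 to 0.930), Hoxd13 at 0.615 (0.396 to 0.933) and Hoxb13, from 45 to 13 counts, at 0.472 (0.233 to 0.890). With counts scaled to olfactory and vomeronasal receptor genes, which raised the median of all genes by 0.25 in rescue against deleted and 0.26 in rescue against floxed on the log2 scale, only Hoxd8 in rescue against deleted stayed lower and Hoxb4 was called higher in both. Hoxd8 and Hoxd13 also had more H3K27me3 in rescue than in deleted.

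The proteins that act with or on Hox genes were read from 4 lists with 29 genes measured for H3K27me3. In deleted against floxed 1 was lower and 1 higher, beside 5.39% and 4.72% of all measured genes, and rescue against deleted gave 4 lower and 4 higher genes, beside 11.3% and 7.07%. Rescue against floxed gave 2 lower genes, Pcgf2 and Rxra, and 1 higher, Mllt1, beside 8.05% and 5.72%. Of 7 measured TALE cofactors, which bind DNA with Hox proteins, H3K27me3 was higher in deleted against floxed at 1, Pbx4 (62, 115 and 96 counts), and lower there in rescue against deleted. Meis1, the partner of Hoxa9 in leukemia, had 31, 32 and 80 counts over 138542 bp and no call. Among 6 measured genes of the MLL fusion complex, Mllt1 (17, 20 and 72 counts) and Aff1 were higher and Aff4 lower in rescue against deleted, on 16 to 72 counts each. Of 6 measured Polycomb genes Bmi1, a member of repressive complex 1, had 87, 55 and 164 H3K27me3 counts, lower in deleted and higher again in rescue, and Pcgf2 was lower in rescue against deleted. Among 10 regulators of Hox genes in the retinoic acid and Cdx pathways Cyp26a1, which degrades retinoic acid, was higher (163, 117 and 367 counts) and Rxra lower in rescue against deleted; none was called in deleted against floxed, and the median log2 ratio there was -0.23.

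For H3K4me3, 19 genes of these 4 lists were measured. In deleted against floxed 0 were called, and rescue against deleted gave 5 lower and 2 higher genes, all on the plus strand, beside 5.97% and 4.49% of all measured genes. Aldh1a2, which makes retinoic acid, was lower (122, 112 and 38 counts), as was Cyp26a1 (129, 115 and 62), and the receptor Rara was higher (68, 38 and 64). Meis3, Suz12 and Mtf2 were also lower there, and Bmi1 higher (49, 30 and 51). Against floxed, Aldh1a2 and Mtf2 were lower and Rara and Bmi1 higher in rescue, beside 3.92% and 1.92% of all genes. At Cyp26a1, as at Hoxd8 and Hoxd13, H3K27me3 was higher and H3K4me3 lower in rescue than in deleted. Other listed genes differed: Bmi1 was called higher for both marks there. Aldh1a2, Meis3 and Rara, measured for both marks, were called for H3K4me3 alone.

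No Flag summit was listed near the clusters. The authors' lists of Flag summits held 475 positions in floxed, 220 in deleted and 429 in rescue, and 0 lay within 10 kb of any Hox cluster in any list. The nearest summit in the rescue list was 1.64 Mb from HoxD, 3.06 Mb from HoxB, 5.70 Mb from HoxA and 27.8 Mb from HoxC. Floxed and deleted cells carry no tagged gene by their labels, and their lists serve as the background. The rescue list was shorter than the floxed list. The clusters are a small part of the genome, so lists of this length would seldom place a summit there. The 0 therefore cannot decide whether Hhex binds at the clusters.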

How the data were processed

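Chromatin immunoprecipitation libraries of mouse MLL-ENL leukemia cells were used as deposited. Per the file headers, each of the 6 histone files gives whole-number counts per gene with an Entrez identifier, symbol and length in 27179 rows, not normalised by the authors. The lengths show that H3K27me3 was counted over whole genes and H3K4me3 in windows of 301 bp. Per the submitters' processing notes, featureCounts, MACS2 and build mm10 were used; no aligner or version is given in the sources used here. Of the Flag files, 3 in number, each holds summit positions and a −log10 score per summit as deposited by the authors; the scores were not used. Rows without a symbol (568, 0.608% to 0.739% of counts) were left out of totals and comparisons.

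The members and gene lists were chosen with earlier results of these data known. Counts were scaled to the total of named genes. Ratios carry 95% conditional binomial (Clopper-Pearson) intervals, computed over all named genes with Python 3.11.15 and scipy 1.17.1, and log2 ratios use a prior count of 1. With 1 library per group no test between groups was made. The size rule was run on simulated counts with Poisson counting error alone, which hold no spread between libraries and so cannot check the calls for it. At a simulated 1.5-fold change it recovered 8 to 19 of 25 genes. Scaling factors of edgeR 4.0.16 and DESeq2 1.42.0 served as alternatives, as did scaling to 2662 genes with the most H3K4me3 (for H3K27me3) or to 1459 olfactory and vomeronasal receptor genes (for H3K4me3). Gene positions came from a RefSeq table of GRCm38.p6, the assembly of mm10, matched by Entrez identifier for 25275 of 26611 genes; the file length of 20 Hox genes differed from RefSeq by more than 5 bp. Strands and promoters came from a RefSeq promoter table that matched 22 of 39 Hox genes, and the placing of the H3K4me3 windows is an inference from those strands. Named in full were the HoxA and HoxB genes; in HoxC and HoxD, the 2 lowest and 2 highest called genes per mark and comparison and the genes beside the largest step; and list members that were called. Hoxc9, Hoxc13, Hoxd1 and Hoxd3 and the uncalled list genes were added after their values were seen. The values of 1 item are not reported here; it stays in the counts and medians over the members and is left out of the figures.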

Additional observations from a re-analysis of the deposited data

How the results depend on the processing

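No paired analysis was possible because each group has 1 library; for the same reason no library could be left out. Depth limits the H3K4me3 comparisons, where the windows of the 13 measured Hox genes held 13 to 220 counts, and so does the choice of scaling. For H3K27me3 in deleted against floxed, 2 Hox genes were lower at a ratio of at least 2, and the HoxA median was 0.00 with no filter on counts, which brings in the genes at 0. In rescue against deleted, 1 was lower at a mean of at least 100 counts, 2 were higher at a ratio of at least 2, and the HoxA median was 0.01 with no filter. In rescue against floxed, 1 was lower at a mean of at least 100 counts and 1 higher with no filter. For H3K4me3 in deleted against floxed, 0 were lower at a mean of at least 100 counts, at a ratio of at least 2 or with HoxA left out, and 2 with no filter. In rescue against deleted, 1 was lower with edgeR TMM factors, 1 lower and 1 higher with scaling to receptor genes, 0 lower at a mean of at least 100 counts or a ratio of at least 2, and 4 with no interval; the HoxB median was 0.56 at a mean of at least 100 counts, which leaves Hoxb4 alone. In rescue against floxed, 0 were lower and 1 higher with scaling to receptor genes, 0 lower at a mean of at least 100 counts and 1 at a ratio of at least 2. The largest HoxD step was 2.41, 1.91 and 1.97 with Hoxd4 left out and 1.66, 1.69 and 1.39 per kb of unshared length. H3K4me3-rich Hox genes numbered 6, 5 and 3 in floxed, deleted and rescue at the 85th percentile, and 5, 4 and 2 with the 75th percentile taken over plus-strand genes. The unshared length, the plus-strand percentile and the comparison without HoxA were chosen after seeing the data. Where no cause is stated it was not tested. The other 251 summary values stayed within 1.5 times (counts) or within their counting interval (steps and medians), but 6 of these medians reached 0 or changed sign. For H3K4me3 the HoxB median went from -0.37 to 0.37 in rescue against floxed at a mean of at least 100 counts and from -0.23 to 0.07 in deleted against floxed with no filter, the HoxC median from -0.17 to 0.08 in rescue against floxed with scaling to receptor genes, and the HoxA median from 0.03 to -0.10 in rescue against deleted at a mean of at least 100 counts. With no filter the HoxA median was 0.00 for H3K4me3 in deleted against floxed and for H3K27me3 in rescue against floxed. Among them, 19 Hox genes were lower for H3K27me3 in deleted against floxed with TMM or DESeq2 factors and 13 with scaling to the genes with the most H3K4me3, and 13, 11 and 8 were higher in rescue against deleted. Of single-gene calls under the alternatives, 507 kept their call, 11 were lost and 10 were gained in the same direction.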
